A study of Mus musculus with 8 samples.

Results

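Krüppel-like factors (KLFs) are transcription factors that carry zinc fingers at the end of the protein and bind GC-rich and CACCC-type sequences in promoters and enhancers. The mouse genes described here are Klf2, Klf3, Klf4, Klf5, Klf6, Klf7, Klf9, Klf10, Klf13 and Klf17, and they were found as every probe set that the array's annotation gave exactly one of these symbols. That gave 36 of the 45101 probe sets of the table, for 10 of the 18193 genes that had a probe set with a single symbol. A probe set is a group of short oligonucleotides that reads 1 target, and a gene may have several. Both stages were wild-type B6D2F1 embryos from crosses within that strain, collected as zygotes, grown in KSOM medium and read whole: 4 arrays of 8-cell embryos at embryonic day 2.5, 66 h after the human chorionic gonadotropin (hCG) injection, and 4 arrays of blastocysts at day 4.5, 120 h after it. The comparison spans the days in which the blastocyst cavity forms, which the title of the series links to AP-2 gamma and tight junctions. Nothing in the labels shows that the 4 arrays of a stage hold different embryo pools, and the p-values therefore reflect only the spread of these samples, possibly a technical one.

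Within the family, KLF2, KLF4 and KLF5 are known as activators that help keep mouse embryonic stem cells in the naive state, and KLF5 is needed for both the outer and the inner cells of the blastocyst. KLF17 is known from oocytes and cleavage-stage mouse embryos and, in humans, from naive pluripotent cells. KLF6 and KLF7 are broadly acting activators. KLF3 represses genes through the corepressor CtBP, and KLF9, KLF10 and KLF13 do so through SIN3A and its histone deacetylases.

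Between the 8-cell embryo and the blastocyst members of the family changed in both directions, as the tested genes at large did. Klf17 fell about 101-fold on its brightest probe set and Klf2 4.98-fold, and Klf4 and Klf10 fell less. Klf3 and Klf9 were lower on their brightest probe sets, but each had probe sets called in both directions. The call of Klf9 was lost with quantile, median and spike-in scaling. Klf7 rose 4.77-fold, and Klf6 rose from values under the 40th percentile of the array (54.4-fold on the fitted scale, a size set by the added constant). Klf5 rose slightly on its brightest probe set, and Klf13 did not pass the test. Here and below, differences are blastocyst minus 8-cell in log2(signal + 16), a fold is the same difference on a linear scale, SE is its standard error, and adjusted p is limma's over the whole table after Benjamini-Hochberg correction. Each gene was tested on its brightest probe set, which had to lie above the 40th percentile of all probe sets on 4 or more arrays, and all 10 genes met this. Of these 3 were called higher and 6 lower at an adjusted p under 0.05, that is 9 of 10, where 71.7% of all 13276 tested genes were called (37.5% higher, 34.2% lower). The stages did not overlap in 8 of 10 KLF genes and in 66.8% of all genes. Called changes of 2-fold or more were seen in 2 KLF genes upwards and 2 downwards, and in 25.4% and 20.4% of all genes (45.8% together). The median difference was -0.66 for the KLF genes and 0.02 for all genes, and the median size regardless of direction was 0.92 and 0.90. Whole embryos were read, so fewer cells of a type and less RNA per cell cannot be told apart.

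**Figure D1:**
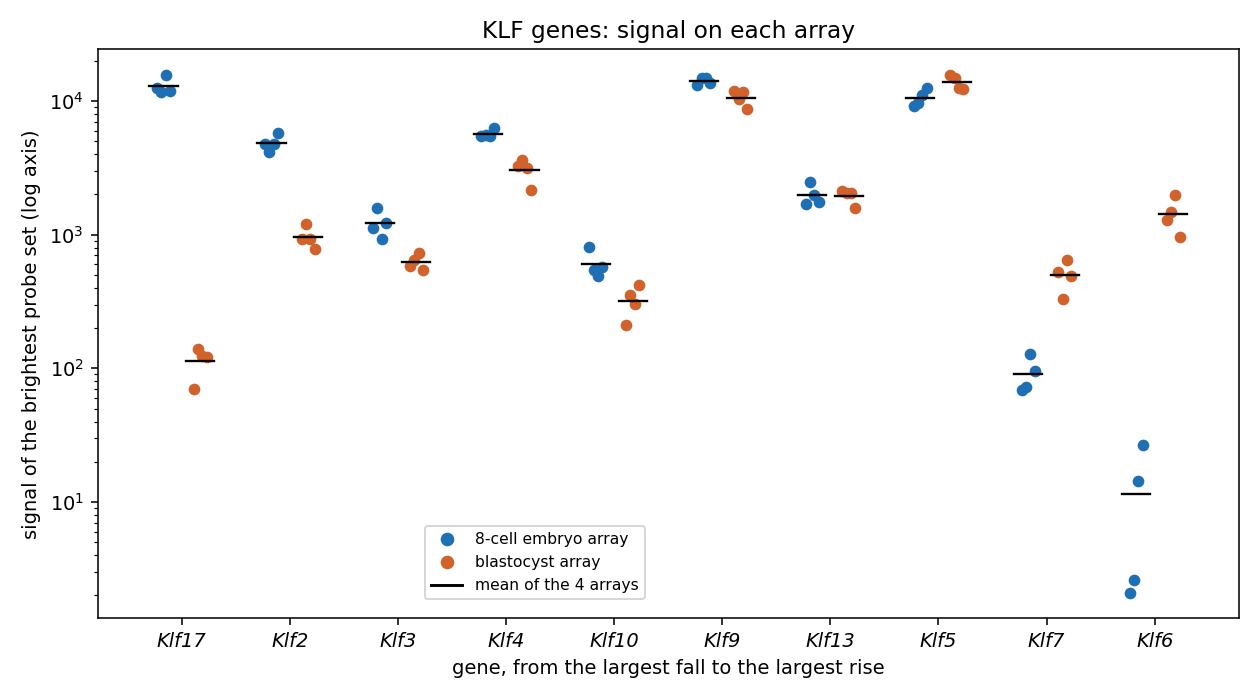
Signal of the brightest probe set of each KLF gene on each array (log axis), 4 arrays of 8-cell embryos and 4 of blastocysts per gene, with bars at the mean. Klf17 lies between 11701 and 15585 in 8-cell embryos and between 70.2 and 139 in blastocysts, and Klf6 shows the opposite order.

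**Figure D2:**
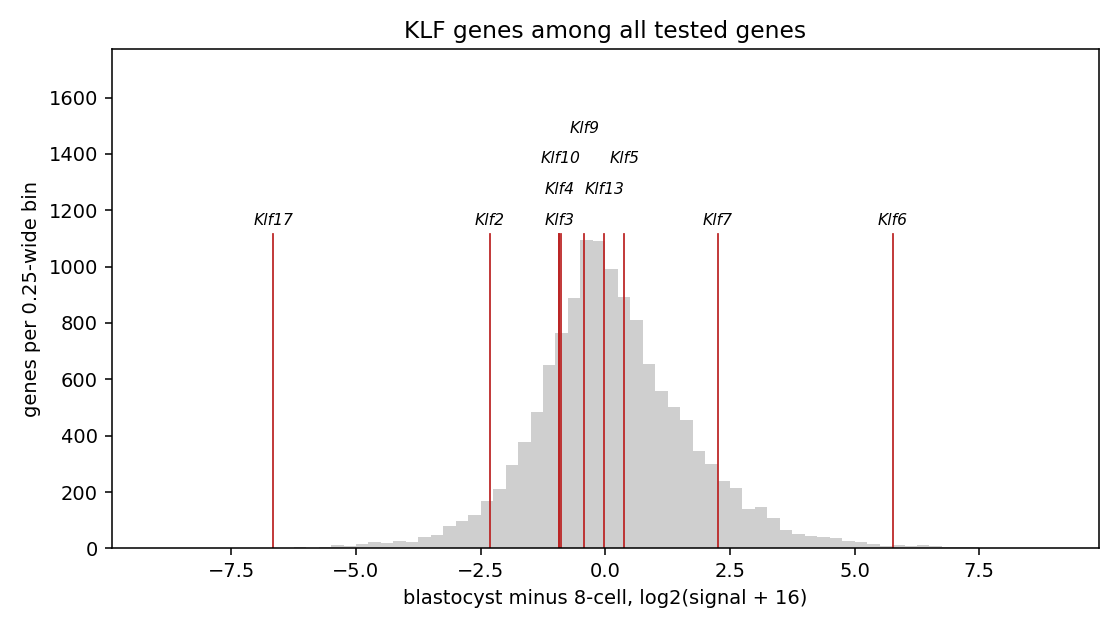
Distribution of the blastocyst minus 8-cell difference over the 13276 tested genes (grey bars, genes per bin of 0.25 log2 units), with a red line at each KLF gene. Klf17 (-6.66) and Klf6 (5.77) lie in the outer tails, and Klf13 (-0.02) lies near the middle.

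Markers of the cells of each stage moved with the labels. All 6 trophectoderm markers were higher in blastocysts, with a summed signal of 2997 to 3489 on the 8-cell arrays and 73370 to 82520 on the blastocyst arrays, 3 of 3 epiblast markers were higher (1507 to 2161, then 4184 to 5535), and of 4 primitive endoderm markers 3 were higher and 1 lower (1684 to 3181, then 6810 to 7830). The epiblast marker Fgf4 lost its call with quantile normalisation (adjusted p = 0.0868) and gave -0.10 with its probe sets averaged, and the lower endoderm marker Gata4 lost its call with spike-in scaling (adjusted p = 0.0721). The 3 oocyte markers Zp3, Gdf9 and Bmp15 were lower (1627 to 2363, then 150 to 214). The trophectoderm marker Elf5 and the endoderm marker Sox17 were under the 40th percentile on every 8-cell array, and Bmp15 on every blastocyst array. Each of these genes entered the test through the other stage alone, so its call was bound to go that way. The summed signal of 6 cumulus and granulosa cell markers was 92.6 to 229 in 8-cell embryos and 156 to 214 in blastocysts, with 1 of 3 tested called higher (Cyp11a1, adjusted p = 0.194 with its probe sets averaged). That of 3 sperm markers was 88.4 to 169 and 49.45 to 99.4, with 1 of 2 tested called lower, and that of 3 blood markers, none bright enough to be tested, was 16.3 to 31.5 and 26.8 to 87.3. Arrays of the same stage correlated at 0.977 to 0.988 over the tested genes. The RNA had been amplified, and the 3' control probe set of Actb exceeded the 5' one by 2.42 ± 0.19 (8-cell embryos) and 0.82 ± 0.11 (blastocysts) in log2 units (SD, n = 4 each). The 8-cell columns have at most 1 decimal and the blastocyst columns more, so a difference in handling between the stages cannot be told apart from the stage.

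The promoters of 4 members are shown to place the family on the genome: Klf17 and Klf6, with the largest fall and rise, and the naive-state genes Klf2 and Klf4. Of the 10 genes 8 had a promoter in the RefSeq table (GRCm38.p6), and Klf5 and Klf10 had none there. Each line below gives the 250 bases before the annotated start, 5′ to 3′ on the strand of the gene. Capitals mark matches on either strand to the GC box GGGCGG, the CACCC box CCACCC and the CCAAT box CCAAT.
Klf17, chr4:117765667-117765916, minus strand: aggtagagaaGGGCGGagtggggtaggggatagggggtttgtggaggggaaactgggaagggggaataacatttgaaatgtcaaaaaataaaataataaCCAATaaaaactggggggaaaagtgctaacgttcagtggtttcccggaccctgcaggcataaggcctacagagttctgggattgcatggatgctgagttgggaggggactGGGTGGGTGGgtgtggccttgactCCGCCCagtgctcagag
Klf2, chr8:72318812-72319061, plus strand: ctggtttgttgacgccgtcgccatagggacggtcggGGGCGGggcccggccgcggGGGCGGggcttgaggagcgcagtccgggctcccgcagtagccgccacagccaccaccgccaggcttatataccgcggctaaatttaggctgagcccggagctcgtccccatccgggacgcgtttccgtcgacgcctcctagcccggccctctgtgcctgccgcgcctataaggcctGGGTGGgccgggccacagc
Klf4, chr4:55532476-55532725, minus strand: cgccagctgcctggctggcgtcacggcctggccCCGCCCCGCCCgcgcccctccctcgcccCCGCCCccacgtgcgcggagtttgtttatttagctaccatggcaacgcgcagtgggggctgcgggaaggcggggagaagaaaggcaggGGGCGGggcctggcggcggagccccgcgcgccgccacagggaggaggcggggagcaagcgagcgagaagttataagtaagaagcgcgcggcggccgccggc
Klf6, chr13:5861239-5861488, plus strand: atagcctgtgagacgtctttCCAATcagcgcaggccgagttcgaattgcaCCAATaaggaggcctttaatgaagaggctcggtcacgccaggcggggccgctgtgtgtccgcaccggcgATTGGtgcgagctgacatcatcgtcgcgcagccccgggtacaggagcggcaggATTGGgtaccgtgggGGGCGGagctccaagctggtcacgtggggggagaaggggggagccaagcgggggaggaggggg

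The GC box was present in 2 copies before Klf17, 2 before Klf2, 4 before Klf4 and 1 before Klf6, and 32.7% of 32841 promoters of the table held at least 1 in the same window. The CACCC box, which can overlap the GC box by some of its bases, was found 2 times before Klf17 and 1 time before Klf2, not in the other windows printed here, and in 28.1% of all promoters. The Klf6 window held 4 CCAAT boxes and the Klf17 window 1, against 33.9% of promoters with any. Of the windows not printed, that of Klf3 held 6 GC boxes and 3 CACCC boxes, Klf7 held 1 and 3, Klf13 held 3 and 1 (of which 1 GC box overlapped the CACCC box) with 2 CCAAT boxes, and Klf9 held neither but 3 CCAAT boxes. The TATA box TATAAA was in none of the 8 KLF windows and in 12.4% of all. Base composition set Klf17 apart from the others in value: its window had 52.0% G and C and a ratio of observed to expected CpG of 0.301, whereas the other 7 windows ran from 59.2% to 78.4% and from 0.599 (Klf3) to 0.941 (Klf4), with medians over all promoters of 52.4% and 0.374. A letter match is a description and shows no binding.

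Klf17 stood at 12468, 11701, 15585 and 11898 on the 8-cell arrays and at 70.2, 139, 123 and 122 on the blastocyst arrays. Every blastocyst array was far below every 8-cell array, and each was still above the 40th percentile of its array. The difference of -6.66 (SE 0.20, adjusted p = 1.43e-08) was the 6th lowest of the 13276 tested genes. The brightest probe set, 1456561_s_at, ends in _s_at, a suffix the manufacturer gives to probe sets that match more than 1 transcript. The other probe sets fell as well. Probe set 1429303_at read 4549, 5187, 6338 and 6119 in 8-cell embryos and 72.6, 103, 121 and 82.8 in blastocysts, a difference of -5.66 (SE 0.18, adjusted p = 2.20e-08 in the fit over all 28229 tested probe sets). Probe set 1438899_at read 431, 454, 543 and 913, then 9.15, 3.23, 2.43 and 2.02, a difference of -4.84 (SE 0.24). It was under the 40th percentile on all 4 blastocyst arrays, so it entered the test through its 8-cell arrays alone and a fall was bound to appear. The size of this fall depends on the added 16. That of the brightest probe set does so too, with -6.85 for 1 and -6.20 for 64 in place of 16. The summed signal of the oocyte markers fell as well (1627 to 2363, then 150 to 214), and what part leftover oocyte RNA or polar bodies had in the fall of Klf17 was not tested.

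The genes whose values ran most like those of Klf17 over the 8 arrays were Bex6, Arg1 (an arginase), Tnfsf13b (the cytokine BAFF), Cthrc1 and Omt2b. Likeness was the Euclidean distance between the log2 values after each gene was centred on its own mean, and it was 0.70 for Bex6, 0.86 for Arg1, 0.92 for Tnfsf13b, 0.98 for Cthrc1 and 1.15 for Omt2b. Their differences ran from -6.91 (Tnfsf13b, or -4.195 with its probe sets averaged) to -6.20 (Cthrc1). Their blastocyst means were low, from 4.85 (Arg1) to 31.7 (Cthrc1), so these differences and distances depend on the added 16. With only 2 stages, the distance mainly matches the size of the fall.

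Of the naive-state activators, Klf2 fell, Klf4 fell less and Klf5 did not fall. Klf2, read by 1 probe set, stood at 4786, 4143, 4746 and 5732 in 8-cell embryos and at 934, 1213, 934 and 784 in blastocysts. The stages were well apart, and the difference was -2.32 (SE 0.16, adjusted p = 1.07e-06).

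Klf4 stood at 5445, 5548, 5464 and 6301 in 8-cell embryos and at 3247, 3608, 3166 and 2164 in blastocysts. All 4 blastocyst arrays were lower, by -0.92 (SE 0.17, adjusted p = 0.00071). Its other probe set, 1417395_at, gave a larger fall of -1.86 (SE 0.27, adjusted p = 0.000179), from 3393, 2771, 3383 and 4949 to 1104, 1415, 920 and 594. Averaged over both, Klf4 gave -1.39. With the arrays scaled to their bacterial hybridisation spike-ins, an alternative chosen after seeing the data, the brightest probe set gave -0.56 (adjusted p = 0.0522).

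Klf5 stood at 9156, 9744, 11047 and 12564 in 8-cell embryos and at 15556, 14855, 12539 and 12295 in blastocysts. The stages overlapped, and the difference of 0.38 (SE 0.14, adjusted p = 0.0373) lay close to the threshold. It did not pass without 8-cell replicate 1 (adjusted p = 0.0982), 2 (0.0857) or 3 (0.0519) or without blastocyst replicate 1 (0.0989) or 2 (0.0928), it was 0.08 (adjusted p = 0.685) when the probe sets of the gene were averaged, and it was 0.74 with the spike-in scaling. Its other probe sets did not pass: 1451739_at was at 1308 ± 188 and 1167 ± 235 (-0.17, SE 0.18, adjusted p = 0.427), and 1430255_at at 48.4 ± 27.4 and 47.3 ± 24.0 (0.02, SE 0.36; SD, n = 4 each).

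On the brightest probe sets these changes differed from one another. The log2 difference between each pair of Klf2, Klf4, Klf5 and Klf17 was taken within each array, which removes the scale of the array, and compared between the stages. Klf2 fell by 1.40 log2 units more than Klf4 (SE 0.10), and the change of Klf4 lay 1.30 units below that of Klf5 (-1.30, SE 0.14) and that of Klf2 lay further below it (-2.70, SE 0.12). Klf17 fell more than Klf2 by 4.35 (SE 0.24), than Klf4 by 5.74 (SE 0.29) and than Klf5 by 7.045 (SE 0.28). In each of the 6 pairs no blastocyst array overlapped an 8-cell array, and the exact two-sided permutation test over 70 assignments gave p = 0.0286, the smallest that 4 against 4 arrays allow (adjusted p = 0.0286 over the 6 pairs). Without probe sets ending in _x_at, _s_at or _a_at, Klf4 minus Klf5 was -0.75, and with probe sets averaged Klf2 minus Klf4 was -0.925. On its other probe set, 1417395_at, Klf4 changed by -1.86 (SE 0.27), closer to the -2.32 of Klf2. The comparison within arrays was not run on that probe set, so whether Klf2 and Klf4 differ there was not tested.

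**Figure D3:**
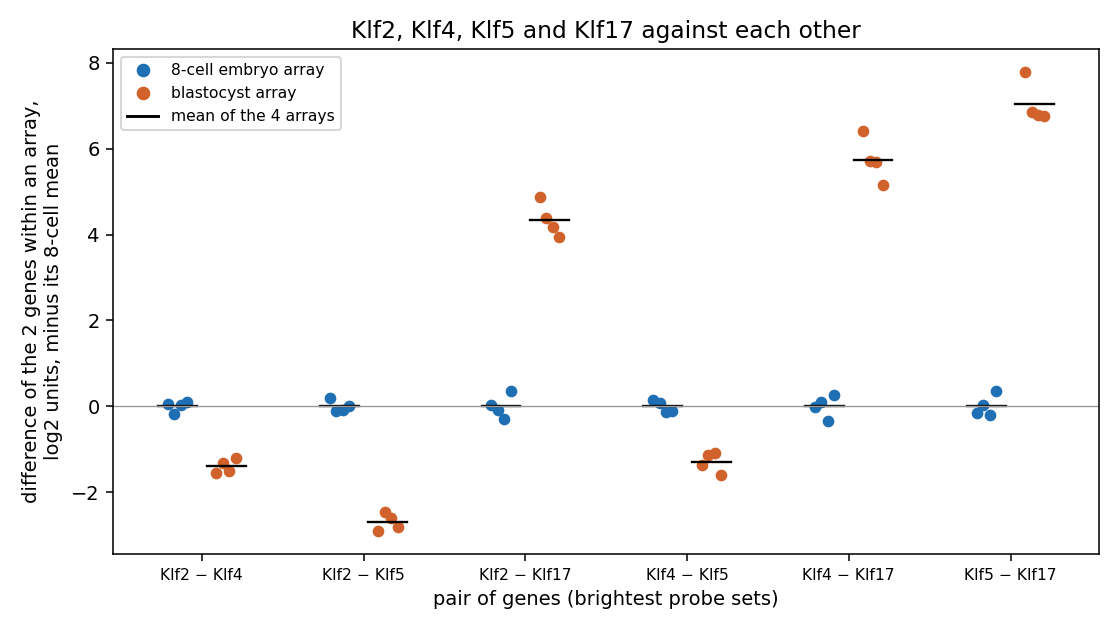
Difference between 2 KLF genes within each array (log2 units, brightest probe sets), shifted so that the 8-cell mean is 0, for the 6 pairs of Klf2, Klf4, Klf5 and Klf17; points are arrays and bars means of 4. Blastocyst arrays lie apart from 8-cell arrays in each pair, from a mean of -2.70 for Klf2 minus Klf5 to 7.045 for Klf5 minus Klf17.

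The activators Klf6 and Klf7 rose on every probe set tested. Klf6 stood at 2.1, 2.6, 14.3 and 26.8 in 8-cell embryos and at 1292, 1473, 1980 and 969 in blastocysts. The 8-cell values were under the 40th percentile on each array, so the gene entered the test through its blastocyst arrays alone, and a difference was bound to appear. The size, 5.77 (SE 0.31, adjusted p = 2.31e-07, the 61st highest of all tested genes), depends on the added constant and was 7.38 with 1 and 4.28 with 64 in place of 16. Probe set 1427742_a_at gave the tightest reading, from 8.6, 7.1, 11.6 and 14.9 to 580, 601, 520 and 427 (4.365, SE 0.16, adjusted p = 3.13e-08). Probe set 1447448_s_at went from 1, 7.4, 1.7 and 4.4 to 700.3, 796, 983 and 397 (5.17, SE 0.26). The stages did not overlap in either, but both were under the 40th percentile on every 8-cell array too. Their order of the stages and their calls were therefore bound to appear. Probe sets 1418280_at (2.91, SE 0.19) and 1459718_x_at (1.98, SE 0.24) were higher too, and the suffix _x_at is the manufacturer's mark for possible cross-hybridisation. Blastocyst replicate 4 had the lowest blastocyst value on the 3 brighter probe sets. At least 3 of the 4 8-cell arrays were under the 40th percentile on each of the 5, so their agreement adds no support.

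Klf7 stood at 69.4, 72.8, 127 and 95.6 in 8-cell embryos and at 526, 330, 645 and 493 in blastocysts. All 8 arrays were above the 40th percentile, the lowest blastocyst array was above the highest 8-cell array, and the difference was 2.255 (SE 0.23, adjusted p = 1.49e-05). Probe set 1419356_at went from 55.6, 149, 80.9 and 73.9 to 389, 324, 464 and 380 (2.00, SE 0.24, adjusted p = 5.31e-05), and 1449439_at from 125, 140.4, 121 and 75.4 to 372, 277, 466 and 217 (1.38, SE 0.25, adjusted p = 0.000808). In both, the lowest blastocyst array exceeded the highest 8-cell array. The dimmest, 1419355_at, was above the 40th percentile on 1 of 4 8-cell arrays and gave 1.555 (SE 0.34).

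Of the repressors Klf3, Klf9 and Klf10 were lower on their brightest probe sets and Klf13 did not pass, and within Klf3 and Klf9 probe sets were called in both directions. For Klf3, the CtBP-binding member, the brightest probe set stood at 1131, 1596, 924 and 1225 in 8-cell embryos and at 583, 645, 731 and 548 in blastocysts, without overlap and with a difference of -0.92 (SE 0.18, adjusted p = 0.00103). Probe set 1421604_a_at went the other way, from 74.3, 74.7, 45.6 and 92 to 303, 221, 188 and 246 (1.55, SE 0.21, adjusted p = 9.25e-05), and so did 1431630_a_at, from 453, 522, 416 and 560 to 644, 794, 734 and 896 (0.64, SE 0.16, adjusted p = 0.0046). In neither did the stages overlap. The suffix _a_at marks probe sets that read several transcripts of 1 gene. Of the remaining Klf3 probe sets, 1429360_at was lower with overlap, from 516, 551, 446 and 353 to 372, 279, 319 and 275 (-0.55, SE 0.17). The dim 1458487_at was lower (-0.66, SE 0.19), but only 1 of 4 blastocyst arrays was above the 40th percentile, which limits its call. Probe set 1441200_at did not pass (0.62, SE 0.33, adjusted p = 0.124) and 1442920_at was too dim to be tested. With the mean of all its probe sets Klf3 gave 0.185 (adjusted p = 0.241), and with spike-in scaling -0.57 (adjusted p = 0.0815).

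Klf9 stood at 13296, 14985, 14819 and 13670 in 8-cell embryos and at 11805, 10330, 11653 and 8755 in blastocysts on its brightest probe set, 1456341_a_at. The stages did not overlap, and the difference was -0.42 (SE 0.13, adjusted p = 0.015). It did not pass with quantile normalisation (-0.18, adjusted p = 0.253), median scaling (-0.35, adjusted p = 0.076) or spike-in scaling (-0.07, adjusted p = 0.815). Of its 7 probe sets, all tested, 4 were lower, 1 was higher and 2 did not pass. The largest fall was that of 1422264_s_at, from 496, 471, 409 and 548 to 175, 187, 198 and 154 (-1.35, SE 0.14, adjusted p = 1.82e-05), and the rise was that of 1428288_at, from 4526, 5933, 4683 and 4422 to 8212, 6401, 7926 and 5490 (0.51, SE 0.17, adjusted p = 0.0253), where the stages overlapped. Probe set 1436763_a_at fell without overlap, from 1149, 967, 1039 and 1594 to 789, 469, 778 and 508 (-0.895, SE 0.23, adjusted p = 0.00583), and the dim 1436952_at was lower with overlap (-0.56, SE 0.20). Probe set 1428289_at was at 8196 ± 774 and 8742 ± 1494 (SD, n = 4 each) and did not pass (0.08, SE 0.16, adjusted p = 0.671).

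Klf10, a gene first found as an early response to transforming growth factor beta, stood at 805, 547, 489 and 570 in 8-cell embryos and at 211, 351, 300.5 and 420 in blastocysts. All blastocyst arrays were lower, by -0.89 (SE 0.22, adjusted p = 0.00511), and with spike-in scaling the difference was -0.55 (adjusted p = 0.107). Klf13 stood at 1704, 2489, 1974 and 1769 and at 2112, 2057, 2068 and 1571 on its brightest probe set, with overlapping stages and a difference of -0.02 (SE 0.16, adjusted p = 0.929). Probe set 1432543_a_at of the same gene was lower in blastocysts, from 1386, 1342, 1256 and 1289 to 877, 857, 928 and 952 (-0.54, SE 0.12, adjusted p = 0.0024), and 1456030_at was too dim to be tested.

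Of the 36 KLF probe sets 34 were tested, 13 were higher, 15 lower and 6 did not pass, so that 28 were called, where 66.4% of all tested probe sets were (33.6% higher, 32.8% lower). The stages did not overlap in 24 of the 34 and in 61.2% of all. Called changes of 2-fold or more were seen in 10 KLF probe sets upwards and 6 downwards, against 22.7% and 19.8% of all (42.6% together). Of the 34, 6 passed the filter with at most 1 8-cell array above the 40th percentile (5 of Klf6 and 1 of Klf7) and 2 with at most 1 blastocyst array (1 of Klf17 and 1 of Klf3). Of the 8 genes with several tested probe sets, every tested one was called in the same direction in 4 (Klf4, Klf6, Klf7 and Klf17), and Klf3 and Klf9 had probe sets called in both directions. The Klf6 probe sets passed the filter through their blastocyst arrays, so their agreement adds no support. Where the probes lie along the transcripts was not analysed here. The gap between the 3' and 5' ends of Actb (above) differed between the stages, and its part in these disagreements was not tested.

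**Figure D4:**
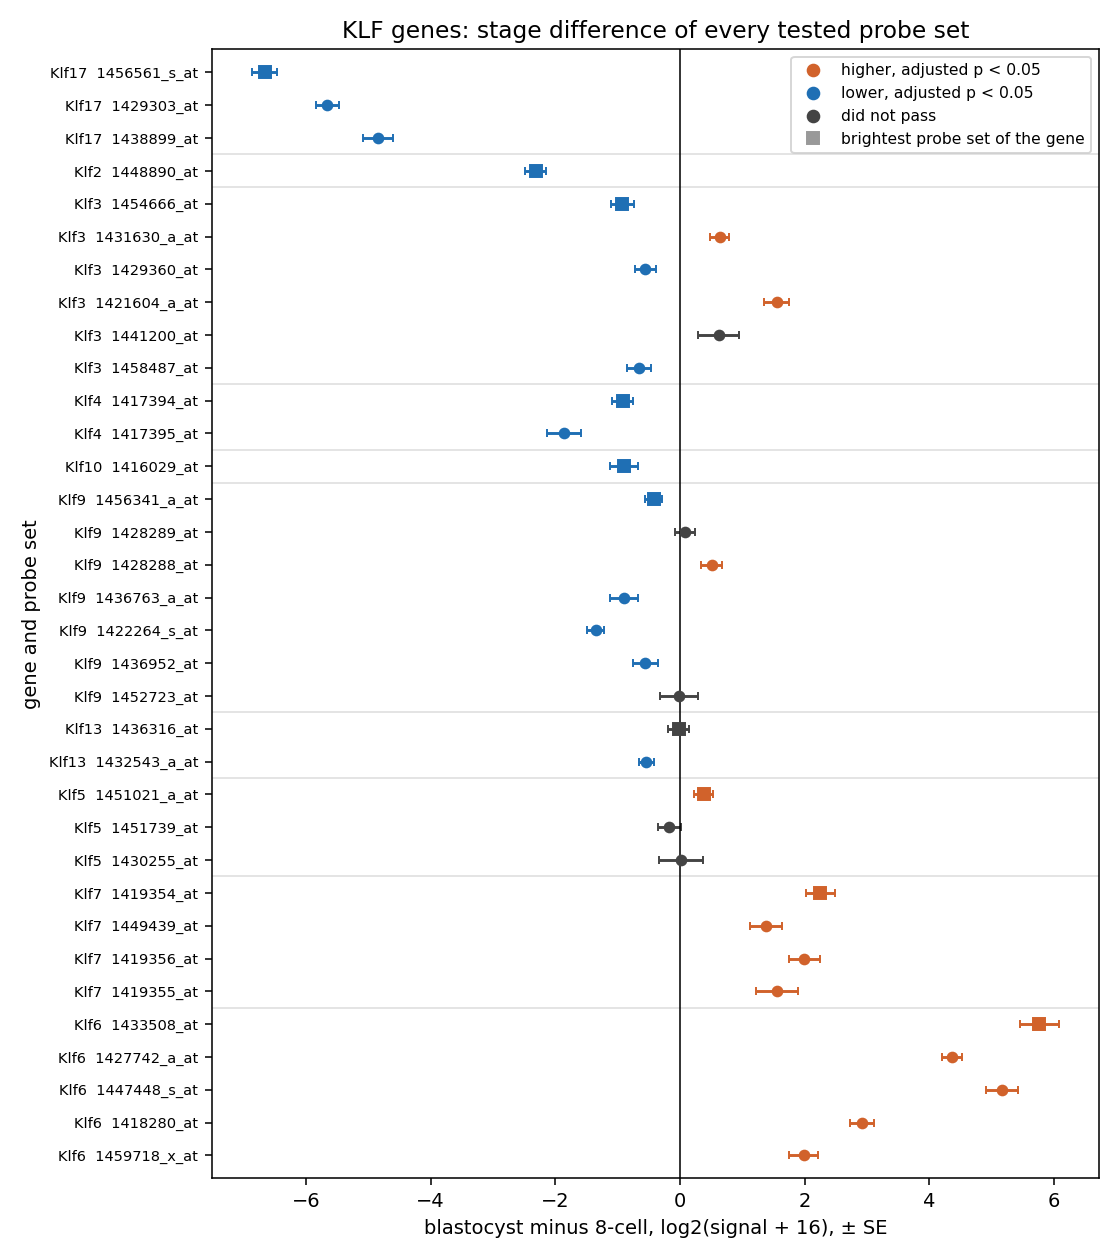
Blastocyst minus 8-cell difference with SE of the 34 tested KLF probe sets, grouped by gene (log2(signal + 16); squares, the brightest probe set of a gene; colours, higher, lower or not passing at an adjusted p of 0.05). Klf17, Klf4, Klf6 and Klf7 lie on one side of 0 with all their probe sets, and Klf3 and Klf9 on both.

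The other members of the KLF and SP family, which shares the zinc fingers, had members called in both directions. Of 16 listed genes 10 were tested, 4 were higher, 3 lower and 3 did not pass, where 71.7% of all tested genes were called (37.5% higher, 34.2% lower). The median of -0.13 turned to 0.19 with spike-in scaling, and 5 were lower with quantile normalisation. Klf15, a regulator of metabolism, went from 4.60 ± 1.39 to 1038 ± 193 (5.66, SE 0.15; SD, n = 4 each) and, like Klf6, was under the 40th percentile on every 8-cell array. Sp3 rose by 0.79 (SE 0.17) and Sp1 by 0.38 (SE 0.13), but Sp1 gave -0.62 (adjusted p = 0.000506) as a mean over its probe sets. The dim erythroid factor Klf1 was called higher by 0.675 (SE 0.23, adjusted p = 0.0249), from 33.0 ± 14.3 to 60.7 ± 14.5 (SD, n = 4 each). Its stages overlapped, and only 2 of 4 8-cell arrays were above the 40th percentile. Sp6, a factor of epithelia, fell from 1845 ± 422 to 148 ± 28.8 (-3.49, SE 0.19, but -1.53 as a mean over its probe sets), Klf16, a SIN3A-binding member, from 1774 ± 322 to 308 ± 66.3 (-2.47, SE 0.18), and the bone factor Sp7 fell less (-0.62, SE 0.13; -0.34 and adjusted p = 0.175 with spike-in scaling). Klf11 (-0.08, SE 0.13), Klf14 (-0.18, SE 0.20) and Sp4 (-0.44, SE 0.22, adjusted p = 0.0965) did not pass.

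Among 12 cofactors and ubiquitin ligases of KLF proteins 6 were higher, 5 lower and 1 did not pass, against the same 37.5% and 34.2% of all tested genes, and the median was 0.64, or 0.16 with probe sets averaged. The ligase genes Fbxw7 and Wwp1, whose products are known to mark KLF5 for degradation, rose by 3.06 (SE 0.20) and 2.71 (SE 0.20), and the acetyltransferase gene Ep300 fell from 7599 ± 480 to 1806 ± 102 (-2.06, SE 0.11; SD, n = 4 each). The corepressor genes used by KLF3, Ctbp1 and Ctbp2, chosen once their values were known, rose by 1.19 (SE 0.15) and 1.45 (SE 0.14). Of the SIN3 scaffolds, chosen likewise, Sin3b rose by 1.945 (SE 0.14, but 1.12 as a mean over its probe sets) and Sin3a gave -0.57 (SE 0.12, adjusted p = 0.00215; -0.21 and adjusted p = 0.438 with spike-in scaling). The deacetylase gene Hdac1, chosen likewise, fell, with a difference of -1.63 (SE 0.11).

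Signals known to control Klf genes in embryonic stem cells include leukaemia inhibitory factor through STAT3, which acts on Klf4, the MEK5 and ERK5 kinases, which act on Klf2, and fibroblast growth factor. Of 13 tested genes of this list 6 were higher, 4 lower and 3 did not pass, where 37.5% and 34.2% of all tested genes were higher and lower. The median of 0.17 was -0.08 with quantile normalisation and 0.50 with spike-in scaling, where 2 were lower. The receptor gene Lifr rose from 17.2 ± 16.4 to 1331 ± 450.5 (5.41, SE 0.33, but 3.26 as a mean over its probe sets; 1 of 4 8-cell arrays was above the 40th percentile; SD, n = 4 each). Stat3 stood at 362, 340, 373 and 262 in 8-cell embryos and at 4425, 3574, 3868 and 3433 in blastocysts, a rise of 3.46 (SE 0.15, but 2.10 as a mean over its probe sets). Socs3, the feedback inhibitor of this pathway, fell from 8124 ± 1353 to 709 ± 49.2 (-3.48, SE 0.145). The MEK5 gene Map2k5, chosen once its values were known, rose by 3.445 (SE 0.17, but 2.19 as a mean over its probe sets) and the ERK5 gene Mapk7, chosen likewise, did not pass (0.17, SE 0.17, adjusted p = 0.394; -0.08 with quantile normalisation).

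Of 12 naive pluripotency genes that act together with KLFs 5 were higher and 7 lower, where 71.7% of all tested genes were called (37.5% higher, 34.2% lower), and the median was -0.57, or -0.25 with spike-in scaling, where 5 were lower. Sox2 rose by 4.015 (SE 0.26), Tfcp2l1 by 3.345 (SE 0.32, but 1.19 as a mean over its probe sets) and Tbx3 fell from 9755 ± 609 to 2232 ± 251 (-2.125, SE 0.12, but -1.41 as such a mean; SD, n = 4 each). Esrrb (-1.34, SE 0.16, or -0.80 as such a mean) and Nr5a2 (-1.36, SE 0.14, or -2.05), chosen once their values were known, fell. The call of Sall4 (-0.31, SE 0.10, adjusted p = 0.0182), chosen likewise, was lost with quantile (-0.11), median (-0.23) and spike-in scaling (0.05).

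**Figure D5:**
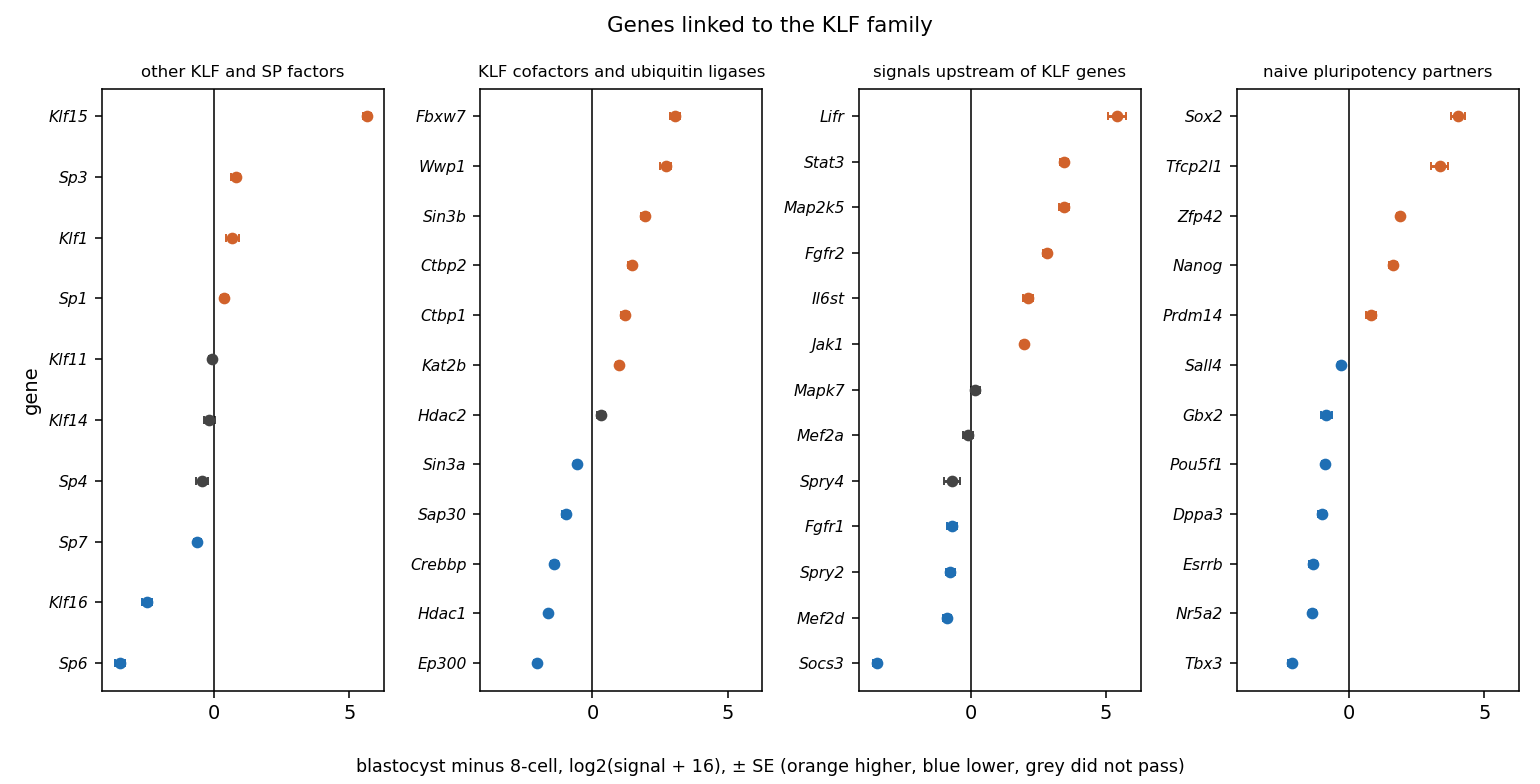
Blastocyst minus 8-cell difference with SE of the tested genes of 4 lists linked to the KLF family, on the brightest probe set of each gene (log2(signal + 16); orange higher, blue lower, grey not passing). Each list has genes on both sides of 0, from Klf15 (5.66) to Sp6 (-3.49) in the KLF and SP list.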

How the data were processed

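The authors deposited array signal intensity on a linear scale, 8 columns of 45101 probe sets, as a single table. Per the labels' protocols, RNA was amplified with a small-sample assay and biotin-labelled. Software for these values: not given in the sources used here. A trimmed mean over each array (outer 2% left out) lay between 499.8 and 501.2, so the arrays had been scaled alike, and this scale was kept. Detection calls were not used here. The members and gene lists were chosen with earlier results of these data known.

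Values became log2(signal + 16). The 64 control probe sets and 932 with several symbols named no gene, and 9160 others were not in the annotation. Gene symbols came from the platform's annotation, and a look-up in RefSeq's GRCm38.p6 table changed 0. The brightest probe set stood for a gene, 13276 genes passed the filter, and blastocysts were compared with 8-cell embryos by limma (lmFit, eBayes, no covariates) with a threshold of 0.05 after Benjamini-Hochberg adjustment. A second fit took all 28229 probe sets past the filter. Named genes were the 10 members, the tested KLF and SP genes, the 3 called genes with the largest differences of each other list, and the 5 genes nearest to Klf17, Klf4 and Klf5 (names ending in Rik, Gm or LOC numbers and _x_at probe sets left out). Genes outside this rule are marked in the text as chosen once their values were known, and marker genes are named where their list is described. The method was tested on simulated data. No depth exists for arrays, and their number limits the precision. Alternatives were quantile, median and spike-in scaling, no filter or one at the 60th percentile, other probe set rules, an intensity trend, array weights, a replicate block, 1 or 64 as the added constant, and omitting each array in turn. R 4.3.3, limma 3.58.1, version 1.17.8 of the package data.table, Python 3.11.15 and matplotlib 3.10.9 were used.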

Additional observations from a re-analysis of the deposited data

Results flagged for a closer look

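Of 68 sets of 4 arrays (34 KLF probe sets in each stage), 3 had 1 array far from the other 3 by Dixon's ratio of the gap to the range, and chance marks about 1 in 20 such sets. Klf4 probe set 1417394_at was highest on 8-cell replicate 4 (6301, ratio 0.871), and the gene's difference without that array was -0.87 (adjusted p = 0.00269). Klf6 probe set 1418280_at was highest on the same array (36.8, ratio 0.903), the only 8-cell value of this probe set above the 40th percentile. Klf13 probe set 1436316_at was lowest on blastocyst replicate 4 (1571, ratio 0.911), and without that array the difference was 0.08 (adjusted p = 0.66).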

How the results depend on the processing

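Klf17, Klf2 and Klf7 kept their direction and call under every alternative run, with ranges of -6.85 to -4.84, -2.43 to -1.96 and 1.38 to 2.58, other probe sets included. The -4.84 came from Klf17 probe set 1438899_at, which entered the test through its 8-cell arrays alone, so its call says nothing about stability. Klf7 probe set 1419355_at was above the 40th percentile on only 1 of 4 8-cell arrays, which limits its call likewise. Klf6 ran from 1.98 to 7.38, but it entered the test through its blastocyst arrays alone, so its kept call says nothing about stability. The 6 differences between the changes of Klf2, Klf4, Klf5 and Klf17 kept their direction in the 15 alternatives run for each. The adjusted p of the exact permutation test stayed at 0.0286, the smallest allowed. None of these 15 took Klf4 on its other probe set, 1417395_at, alone. The difference of Klf4 minus Klf5 ran from -1.47 to -0.75. With spike-in scaling, added after seeing the data, the median difference of all genes moved from 0.02 to 0.34, 2972 genes were lower against 4541, 65.4% of calls were higher against 52.3%, and 2 KLF genes were lower against 6. Leaving out each array gave 2 to 3 KLF genes higher, 6 lower, 4783 to 4880 genes higher and 4332 to 4509 lower. Klf13, not called, gave 0.06 with median scaling, 0.34 with spike-in scaling, 0.019 with array weights, and from -0.085 (without 8-cell replicate 1) to 0.096 (without 8-cell replicate 2) when 1 array was left out, with 0.083 without blastocyst replicate 4; on probe set 1432543_a_at it was lower (-0.537). Klf3 turned to 0.185 with the mean of its probe sets and to 1.55, 0.64 and 0.62 on 3 other probe sets. Klf5 gave -0.17 without _x_at, _s_at and _a_at probe sets, which leaves probe set 1451739_at (-0.17 in the fit over all probe sets), and Klf9 then gave 0.081, from 1428289_at (0.081 in that fit), and 0.51 on 1428288_at. Klf5 also lost its call with no filter (adjusted p = 0.0571), where more genes are tested and its SE was 0.15 against 0.144. The cause of these changes was not tested. With a replicate block the call of Klf5 was lost (adjusted p = 0.0956), no other KLF call changed, and 4862 genes were higher and 4414 lower. The labels give the samples only a shared number. Arrays of the same number did not deviate together (correlations of their deviations from -0.035 to -0.024). With 4 arrays per stage, these correlations cannot tell whether arrays of the same number were handled together.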

Other observations

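The genes whose values ran most like those of Klf4 over the 8 arrays were Zbtb17 (distance 0.28, difference -0.93), which encodes the MYC partner MIZ1, Senp2 (0.29, -0.89), a SUMO protease, Dpep3 (0.29, -0.98), Ticrr (0.33, -0.925), a factor for starting DNA replication, and Slc39a4 (0.34, -1.11), a zinc transporter. When probe sets were averaged, Senp2 gave -0.095, Zbtb17 -0.56 and Ticrr -0.555. Those most like Klf5 were Pigl (0.22, 0.25), Itch (0.25, 0.32), a ubiquitin ligase, Ralgds (0.27, 0.465), Uhrf1bp1l (0.28, 0.27) and Eprs (0.28, 0.42), a tRNA synthetase. When their probe sets were averaged, Itch gave -0.315, Eprs -0.02, Pigl 0.82 and Uhrf1bp1l 0.99.

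Blastocyst replicate 4 had the lowest value of its stage in 7 of 10 KLF genes, where it was the lowest array in 24.5% of all tested genes and the highest in 32.5%. The 8-cell replicate 1 was lowest of its stage in 6 of 10 KLF genes and in 21.7% of all tested genes. These counts were made after the values had been seen and have no test, and the genes share the same arrays.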
